A study of Mus musculus with 6 samples.

Results

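The antioxidant and glutathione genes are 43 named mouse genes whose products remove superoxide and peroxides or make, use and recycle glutathione. They were taken as a list of gene symbols, by a rule that uses no measured value, and all 43 were found among the 46959 genes of the deposited expression table. The list was chosen with earlier results of these data known. Of the 43, 42 reached 1 RPKM in at least 2 of the 6 libraries and were tested among 13367 genes. RPKM is reads per kilobase of gene, scaled to the reads of the library. The microsomal glutathione S-transferase gene Mgst2 did not reach that level.

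The 6 libraries are RNA-seq of cells sorted from islets of adult mice that carried both Ins1-H2b-mCherry, a nuclear red reporter driven by the insulin 1 promoter, and Ucn3-eGFP, a green reporter of urocortin 3, which marks mature beta cells. Immature beta cells were positive for mCherry only, mature beta cells were positive for mCherry and eGFP, and double negative cells, the islet cells other than beta cells, carried neither signal. Each population had 2 libraries, each from the pooled islets of 10 to 12 animals. All animals carried both transgenes, and the islets of all groups were cultured overnight in 5.5 mM glucose with 10% serum and dissociated with 0.25% trypsin before the sort. The populations are therefore defined by reporter activity and not by antioxidant genes.

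Superoxide dismutases turn superoxide into hydrogen peroxide, which catalase, glutathione peroxidases and peroxiredoxins break down. Glutathione, made from cysteine by glutamate-cysteine ligase and glutathione synthetase, and thioredoxin supply the electrons and are recharged with NADPH. NRF2, the product of Nfe2l2, switches on many of these genes when KEAP1 releases it. Rodent beta cells are known for low levels of catalase and glutathione peroxidase.

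The recovered depth was 2393841 and 3448926 reads in the immature, 23718091 and 26824380 reads in the mature and 22063880 and 22731664 reads in the double negative libraries. Between replicates, the log2 difference over genes had an SD of 0.393 (immature), 0.132 (mature) and 0.222 (double negative). Replicate 1 of each population is labelled male and replicate 2 female, while the study design names female pools only. In the libraries labelled male, the X-inactivation RNA Xist measured 129, 36.5 and 38.9 RPKM in immature, mature and double negative cells and the Y-linked gene Ddx3y 0.161, 0.008 and 0 RPKM. In the libraries labelled female, Xist measured 108, 21.4 and 47.6 RPKM and Ddx3y 1.23, 0.065 and 0.042 RPKM in the same order of populations. These values go against the male label of replicate 1, and Y-linked RNA was higher, though low, in the libraries labelled female. Nothing states whether a shared replicate number marks a shared pool, so the p-values measure the spread between these libraries. That spread was fitted once per gene over all 6 libraries and is shared by the 3 comparisons, although the immature replicates differed most.

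The label of immature beta cells held for beta cell genes, with other cells' markers beside them. Summed over 9 beta cell markers, expression was 72885 and 78016 RPKM across immature libraries, 246473 and 263266 RPKM across mature ones and 4711 and 7019 RPKM across double negative ones. The 7 alpha cell markers summed to 29216 and 19901 RPKM across immature libraries, 686 and 893 RPKM across mature ones and 178380.0 and 171937 RPKM across double negative ones. For both lists the immature libraries lay between the others. Immune, endothelial, mesenchymal and acinar markers were highest there. The 10 immune markers summed to 1582 and 1608 RPKM across immature libraries, 20.3 and 21 RPKM across mature ones and 39.5 and 43.9 RPKM across double negative ones. The 8 endothelial markers summed to 493 and 494 RPKM across immature libraries, 3.87 and 2.94 RPKM across mature ones and 122 and 128 RPKM across double negative ones, and the 8 mesenchymal markers to 141 and 98.3 RPKM across immature libraries, 0.436 and 0.49 RPKM across mature ones and 22.4 and 27.9 RPKM across double negative ones. The 10 acinar markers summed to 7843 and 24768 RPKM across immature libraries, 151 and 105 RPKM across mature ones and 215 and 1847 RPKM across double negative ones. In these same immature libraries, all 10 immune, all 8 endothelial, 7 of 8 mesenchymal and all 7 tested acinar markers were called higher than in mature cells. In that comparison 49.8% of all tested genes were called higher and 15.5% lower. The immune markers Ptprc, Lyz2, Csf1r and Adgre1 and the mesenchymal marker Lum reached 1 RPKM in at least 2 libraries only with the immature ones counted. Their calls in immature cells are therefore no support for a rise. The immune markers Ptprc and Tyrobp were at 0 in 1 mature library each, and the acinar marker Amy2a5 was at 0 in all 6 libraries. The 4 delta and 2 PP cell markers also lay between mature and double negative levels. The 6 ductal markers summed to 442 and 454 RPKM across immature libraries, 813 and 887 RPKM across mature ones and 721 and 747 RPKM across double negative ones, of which Spp1 gave 288 and 286 RPKM (immature), 748 and 821 RPKM (mature) and 620 and 624 RPKM (double negative). Of the 5 tested ductal markers, Krt19, Sox9 and Tspan8 were called higher and Spp1 and Krt7 lower in immature than in mature cells. Red blood cell markers summed to at most 5.28 RPKM in any library. In bulk RNA, fewer cells of a type and less RNA per cell cannot be told apart.

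**Figure D1:**
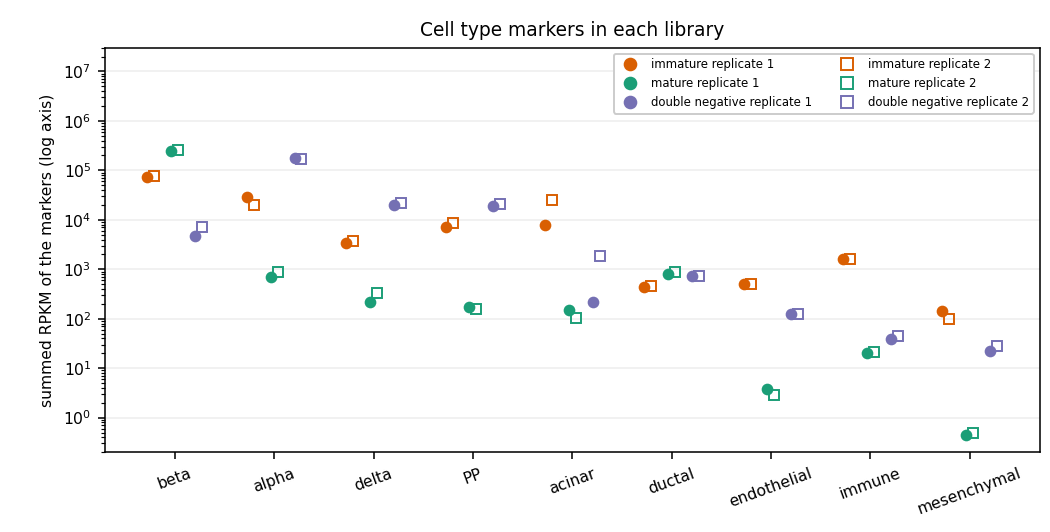
Summed expression of each marker list (log axis, RPKM) in each of the 6 libraries, by population and replicate. Immune, endothelial, mesenchymal and acinar markers are highest in both immature libraries, and beta cell markers are highest in both mature libraries.

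The stretches before the gene start show the letters that NRF2-type antioxidant response elements share, TGACNNNGC, read on either strand (GCNNNGTCA on the other). RefSeq promoter windows of 300 bases, 250 before and 50 after the start on GRCm38.p6, were found for 37 of the 43 genes, not for Sod3, Prdx6, Gclc, Gsr, Gsta4 and Hmox1. Of their 50 windows, 8 held a match (16%), from 8 genes, Gclm, Gstm5, Mgst1, Nfe2l2, Prdx1, Sod1, Srxn1 and Txnrd1. Among all windows, 4071 of 32851 (12.4%) held one. A match is a string of letters and not a measured binding site. The 4 stretches below are shown because the matches lie outside annotated exons and the genes span the range of responses described further on. All run 5′ to 3′ on the plus strand, which is the strand of each gene, with the match in capitals. The match in Prdx1 starts at position -133 from the annotated start (chr4:116685440-116685499) and also holds the AP-1 letters TGACTCA on the opposite strand. The match in Gclm starts at -134 (chr3:122245397-122245456), that in Txnrd1 at -92 from an internal start (chr10:82859088-82859147) and that in Sod1 at -56 (chr16:90220680-90220739).
Prdx1: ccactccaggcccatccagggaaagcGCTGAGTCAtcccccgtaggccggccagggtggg
Gclm: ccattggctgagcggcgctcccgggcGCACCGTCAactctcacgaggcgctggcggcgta
Txnrd1: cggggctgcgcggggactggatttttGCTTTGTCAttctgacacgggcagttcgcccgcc
Sod1: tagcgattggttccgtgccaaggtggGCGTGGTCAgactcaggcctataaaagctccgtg

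In immature beta cells, all 4 genes of glutathione synthesis and reduction and 5 of 8 tested transferase genes were called higher than in mature beta cells, while Sod2, Gpx4, Prdx5, Srxn1, Txn2, Glrx and Glrx5 were called lower. Of the 42 tested genes, 22 were called higher and 7 lower in immature cells and 13 did not pass, by limma on log2(RPKM + 1) at an adjusted p under 0.05 over all tested genes. Differences are given in log2 units of RPKM + 1, positive where the first-named population is higher. Among all 13367 genes, 65.3% were called, 49.8% higher and 15.5% lower, so the shares of 52.4% higher and 16.7% lower among the 42 are close to those of the transcriptome. The median difference was 0.33 for the 42 genes and 0.29 for all genes. By at least 1 on the log2 scale, 11 were higher and 1 lower, where 19.0% and 2.15% of all genes were. The largest rises were those of Gsta4, Gpx8, Mgst1, Gpx3 and Cat, and the largest fall was that of Sod2. The median of all genes was 0.00 after median-ratio rescaling, where the split into 22 higher and 7 lower became 19 and 15. It was -0.17 after quantile normalization, where the split became 20 and 14. A called difference is described below as kept where it passed in the same direction under every alternative that covered the gene. That held for 19 of the 22 higher genes and 5 of the 7 lower ones, the exceptions being Sod1, Glrx2 and Gsr, and Srxn1 and Glrx5. Sod3, counted among the 22 and the 19, was tested only through its immature values.

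Against double negative cells, mature beta cells had 15 genes called higher and 17 lower, where 54.3% of all genes were called, 23.1% higher and 31.2% lower. The shares among the 42 were 35.7% and 40.5%, and the medians were -0.22 for the 42 and -0.08 for all genes. Immature cells had 28 genes called higher and 5 lower than double negative cells (66.7% and 11.9%), where 56.6% of all genes were called, 45.9% higher and 10.6% lower. The medians there were 0.51 for the 42 and 0.24 for all genes. After median-ratio rescaling the counts against double negative cells became 22 and 6 for immature cells, and after quantile normalization 20 and 10. By at least 1 on the log2 scale, mature cells had 5 genes higher and 7 lower than double negative cells, where 5.35% and 8.93% of all genes were. Immature cells had 11 higher and 1 lower by that much, where 13.8% and 1.86% of all genes were. Kept calls numbered 11 of 15 and 12 of 17 for mature cells, and 20 of 28 and 2 of 5 for immature cells. The 3 comparisons share libraries, so their values are given side by side and not counted as separate evidence.

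**Figure D2:**
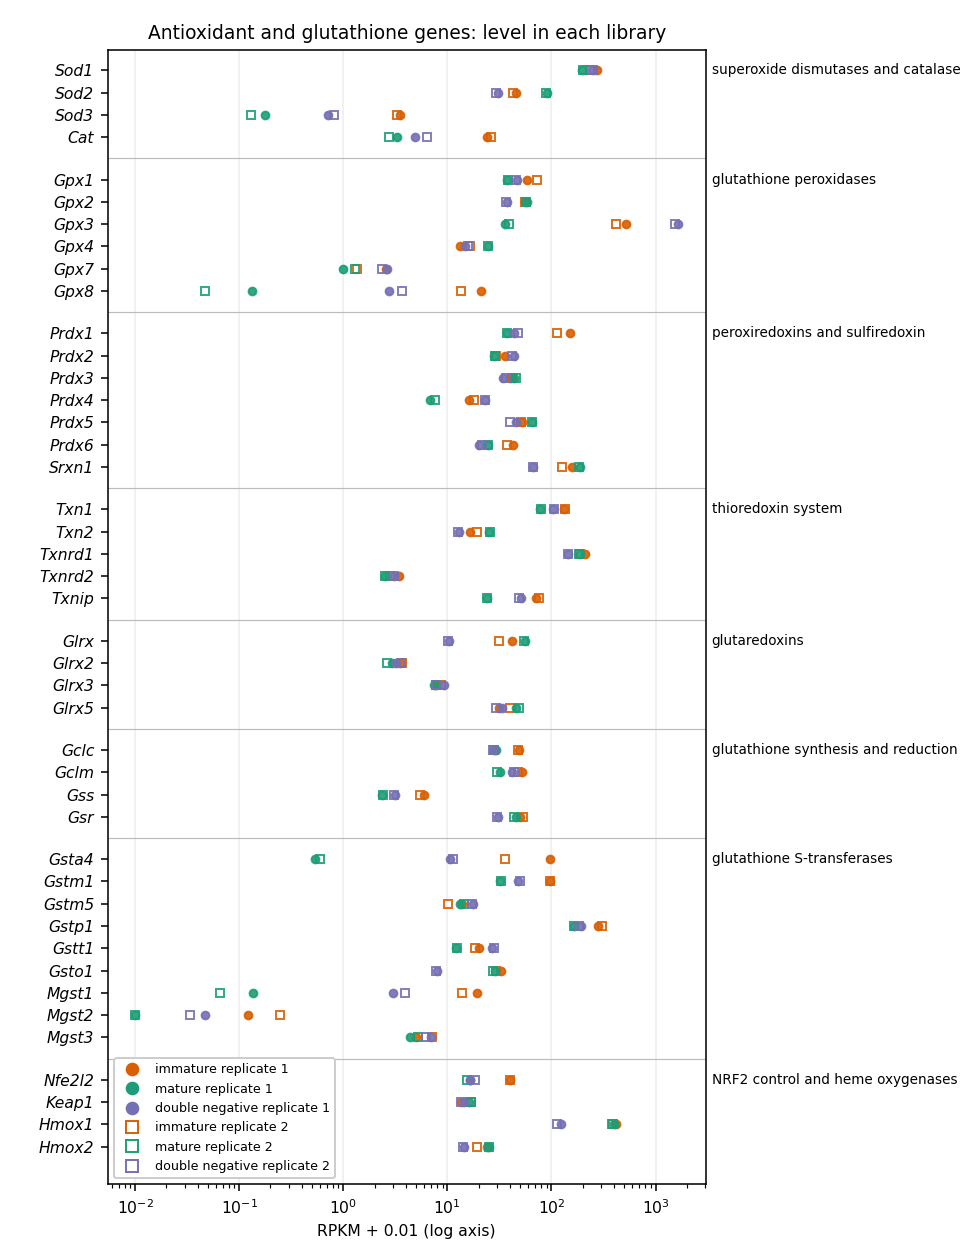
Expression of the 43 genes in each library (log axis, RPKM + 0.01), grouped by role, with filled circles for replicate 1 and open squares for replicate 2. Gpx3 spans from 36 to 1660 RPKM, while Hmox1, Txnrd1, Gstp1 and Sod1 stay above 100 RPKM in every library.

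**Figure D3:**
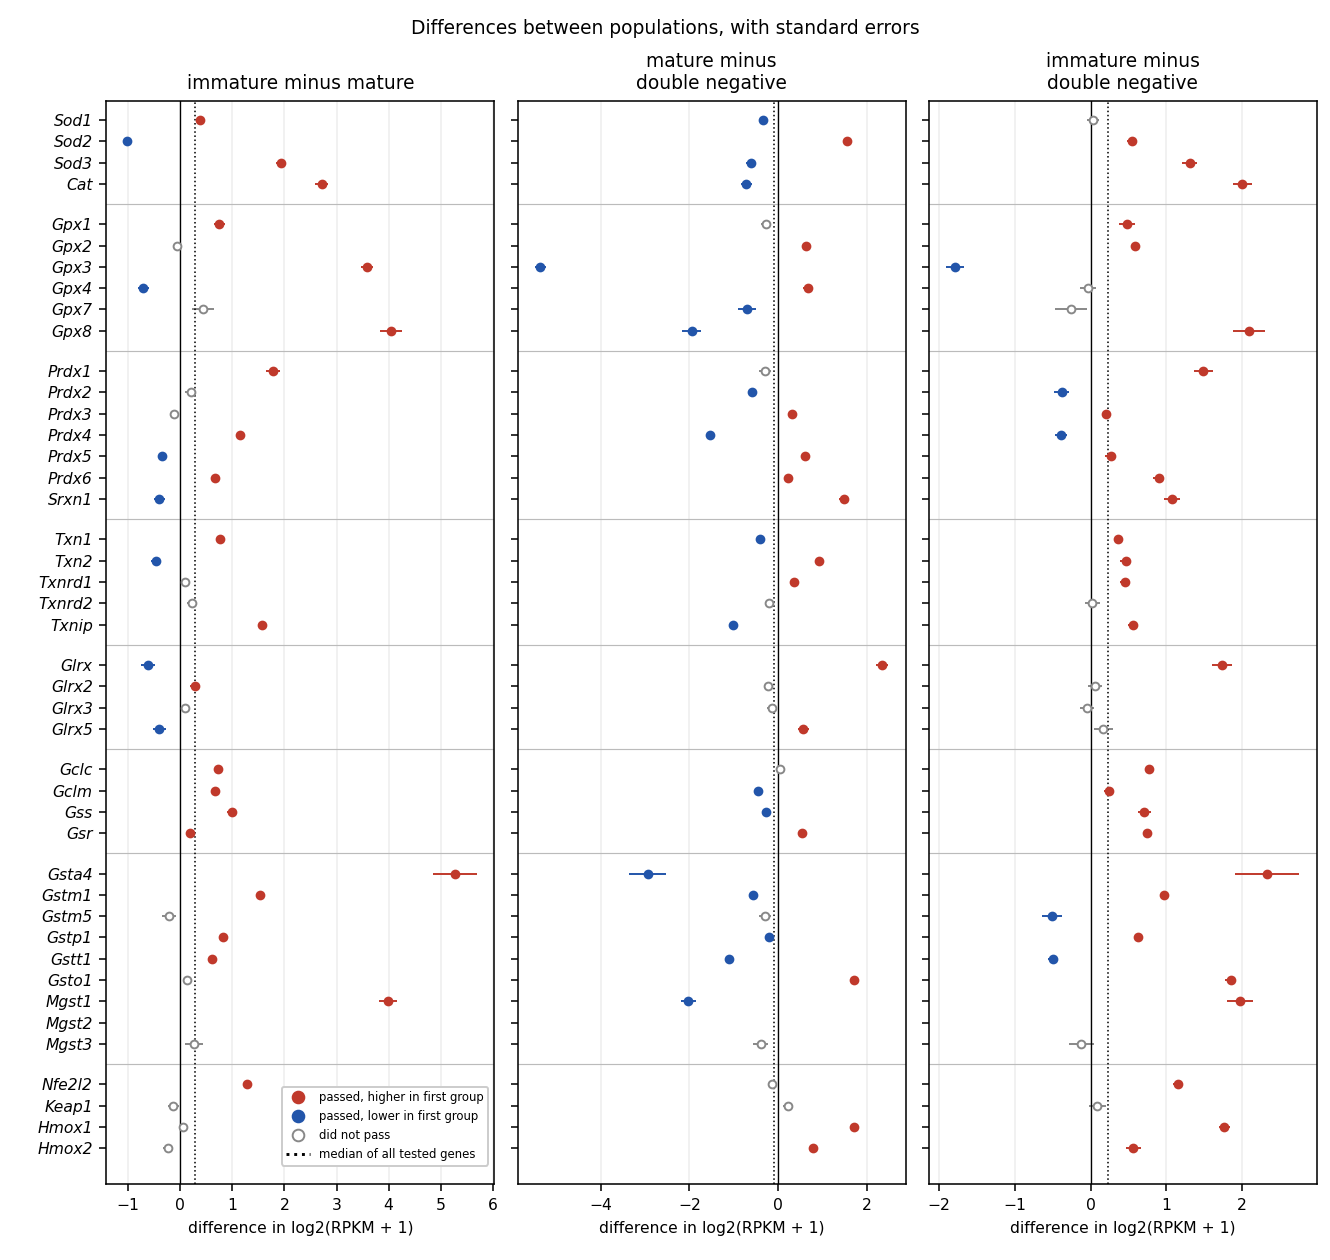
Difference in log2(RPKM + 1) with its standard error for each gene in the 3 comparisons. Filled points passed at an adjusted p under 0.05, and the dotted line is the median of all tested genes, at 0.29, -0.08 and 0.24.

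Superoxide dismutases and catalase moved apart in immature cells, where the cytosolic Sod1, the secreted Sod3 and Cat were higher than in mature cells and the mitochondrial Sod2 was lower. Cat, which breaks down hydrogen peroxide in peroxisomes, measured 24.1 and 26.4 RPKM across immature libraries, 3.24 and 2.77 RPKM across mature ones and 4.89 and 6.31 RPKM across double negative ones. Both immature libraries stood above the other 4, which did not overlap between populations. The difference from mature cells was 2.71 log2 units (SE 0.13, limma adjusted p = 1.89e-05) and from double negative cells 2.0 log2 units (SE 0.13, limma adjusted p = 0.000108), and mature cells were lower than double negative cells by 0.72 log2 units (SE 0.13, limma adjusted p = 0.00454). The mature libraries thus held the least Cat mRNA of the 3 populations. Sod2, the manganese enzyme of mitochondria, measured 45.2 and 42.5 RPKM across immature libraries, 91.4 and 88.4 RPKM across mature ones and 30.4 and 29.2 RPKM across double negative ones. Mature libraries were the highest and double negative libraries the lowest, with no overlap. Immature cells were lower than mature cells by 1.02 log2 units (SE 0.05, limma adjusted p = 3.29e-05) and higher than double negative cells by 0.54 log2 units, and mature cells exceeded double negative cells by 1.56 log2 units (SE 0.05, limma adjusted p = 1.15e-05).

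Sod1, the most abundant dismutase, measured 277 and 237 RPKM across immature libraries, 195 and 199 RPKM across mature ones and 251 and 249 RPKM across double negative ones. Its immature and double negative values overlapped, and the mature libraries were lowest. The difference of 0.38 log2 units (SE 0.08, limma adjusted p = 0.00759) between immature and mature cells did not pass after either rescaling or without mature replicate 1. Mature cells were lower than double negative cells by 0.34 log2 units, a call lost when either replicate of either population was left out. Sod3, which acts outside cells, measured 3.46 and 3.26 RPKM across immature libraries, 0.169 and 0.12 RPKM across mature ones and 0.703 and 0.812 RPKM across double negative ones. Immature cells were higher than mature cells by 1.93 log2 units (SE 0.10, limma adjusted p = 2.71e-05), and both populations differed from double negative cells, by -0.62 log2 units for mature and 1.31 log2 units for immature cells, the mature call failing after quantile normalization. Sod3 reached 1 RPKM only in the immature libraries and was tested only through them, so its calls in immature cells are no support for a rise. Sod3 ran in the same order of populations as the summed mesenchymal, endothelial, immune and acinar markers, whose part in it was not tested.

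Among the 6 glutathione peroxidases, which reduce peroxides with glutathione, 3 rose, 1 fell and 2 did not pass in immature against mature cells, and 3 rose and 2 fell after median-ratio rescaling. Gpx3, a secreted form, had the widest range of all members and measured 515 and 413 RPKM across immature libraries, 36 and 39.6 RPKM across mature ones and 1659.5 and 1525 RPKM across double negative ones. The 3 populations did not overlap, with double negative cells highest and mature cells lowest. The differences were 3.58 log2 units (SE 0.12, limma adjusted p = 5.43e-06) for immature minus mature, -5.36 log2 units (SE 0.12, limma adjusted p = 4.43e-06) for mature minus double negative and -1.78 log2 units (SE 0.12, limma adjusted p = 0.000118) for immature minus double negative. The summed alpha, delta and PP cell markers ran in the same order of populations, and their part in Gpx3 was not tested. Gpx3 made most of the summed peroxidase RPKM in double negative cells, where the 6 genes totalled 1763 and 1630 RPKM, with totals of 666 and 573 RPKM across immature and 158 and 162 RPKM across mature libraries.

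Gpx8, an endoplasmic reticulum member, measured 21 and 13.4 RPKM across immature libraries, 0.124 and 0.0367 RPKM across mature ones and 2.77 and 3.64 RPKM across double negative ones. The mature values rest on about 3 reads and 1 read, so the fitted difference of 4.04 log2 units (SE 0.22, limma adjusted p = 3.18e-05) depends on the pseudocount. Its difference was -1.95 log2 units for mature minus double negative and 2.09 log2 units for immature minus double negative, both called and kept. Gpx1, the abundant cytosolic and mitochondrial form, measured 58 and 73 RPKM across immature libraries, 37.6 and 38.7 RPKM across mature ones and 46.3 and 46.2 RPKM across double negative ones. The immature libraries were highest, and the difference from mature cells of 0.76 log2 units (SE 0.11, limma adjusted p = 0.00143) was kept, whereas that of 0.48 log2 units from double negative cells was lost after both rescalings and without either double negative library. Gpx7, also of the endoplasmic reticulum, measured 2.59 and 1.35 RPKM across immature libraries, 0.981 and 1.3 RPKM across mature ones and 2.6 and 2.35 RPKM across double negative ones. Both immature libraries were above both mature ones, but the difference of 0.44 log2 units (SE 0.21, limma adjusted p = 0.112) did not pass, and the mature minus double negative value of -0.70 log2 units was lost when any of those libraries was left out.

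Gpx4, which reduces lipid peroxides in membranes, went the other way, with means of 14.9 (immature), 24.8 (mature) and 15.2 RPKM (double negative). Immature cells were lower than mature cells by 0.70 log2 units (SE 0.10, limma adjusted p = 0.00163), and the gene was higher in mature than in double negative cells by 0.67 log2 units. Of its 50-base windows 34.7% also occur in other genes, among them pseudogenes, so its reads may have been divided. Gpx2, described mainly in gut epithelium, averaged 55.7 (immature), 58.1 (mature) and 36.9 RPKM (double negative). The first difference of -0.06 log2 units did not pass and the mature minus double negative one of 0.64 log2 units (SE 0.04, limma adjusted p = 0.000108) did.

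Of the 6 peroxiredoxins, thiol enzymes that reduce peroxides, 3 rose and 1 fell in immature against mature cells, and sulfiredoxin fell. With sulfiredoxin, 42.9% were higher and 28.6% lower, against 49.8% and 15.5% of all genes. Prdx1, the main cytosolic form, measured 149 and 113 RPKM across immature libraries, 37.3 and 37 RPKM across mature ones and 43.8 and 47.7 RPKM across double negative ones. The immature libraries exceeded the other 4, by 1.78 log2 units (SE 0.13, limma adjusted p = 0.000108) against mature and 1.49 log2 units (SE 0.13, limma adjusted p = 0.00033) against double negative cells. The difference of -0.29 log2 units between mature and double negative cells did not pass. Prdx4, the form that works in the endoplasmic reticulum and helps fold secreted proteins, measured 16.3 and 18.2 RPKM across immature libraries, 6.81 and 7.65 RPKM across mature ones and 22.8 and 22.8 RPKM across double negative ones. No populations overlapped, mature cells being lowest and double negative cells highest. Immature cells exceeded mature cells by 1.15 log2 units (SE 0.08, limma adjusted p = 9.49e-05), and mature cells were lower than double negative cells by 1.53 log2 units (SE 0.08, limma adjusted p = 4.11e-05). The difference of -0.39 log2 units between immature and double negative cells was lost without either double negative library.

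Prdx6, which also repairs oxidized phospholipids, averaged 39.8 (immature), 24.7 (mature) and 20.9 RPKM (double negative), and rose by 0.67 log2 units (SE 0.07, limma adjusted p = 0.000566) in immature against mature cells. The mitochondrial Prdx5 averaged 51.5 (immature), 65.4 (mature) and 42.7 RPKM (double negative). It fell by 0.34 log2 units (SE 0.07, limma adjusted p = 0.00706) in immature against mature cells and rose by 0.61 log2 units in mature against double negative cells. The exons of Prdx5 overlap those of Trmt112 over 19.1% of their length. Prdx2 and the mitochondrial Prdx3 did not pass between immature and mature cells, at 0.20 log2 units and -0.11 log2 units. Prdx2 averaged 32.9 (immature), 28.3 (mature) and 42.9 RPKM (double negative), and Prdx3 averaged 40.9, 44.3 and 35.3 RPKM in the same order.

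Srxn1, sulfiredoxin, reactivates peroxiredoxins that peroxide has over-oxidized, and measured 159 and 127 RPKM across immature libraries, 189.8 and 186 RPKM across mature ones and 67.1 and 66.7 RPKM across double negative ones. Mature libraries were highest, double negative libraries lowest, and no populations overlapped. Mature cells exceeded double negative cells by 1.48 log2 units (SE 0.11, limma adjusted p = 0.000125) and immature cells did so by 1.07 log2 units (SE 0.11, limma adjusted p = 0.000513), both kept. The smaller fall of 0.40 log2 units (SE 0.11, limma adjusted p = 0.0176) in immature against mature cells did not pass without a filter on low values or without either mature library.

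The thioredoxin system gave 2 rises, 1 fall and 2 genes that did not pass between immature and mature cells, and 2 rises and 2 falls after either rescaling. Txnip, which binds thioredoxin and is induced by glucose in beta cells, measured 70.8 and 76.2 RPKM across immature libraries, 24 and 23.9 RPKM across mature ones and 50.9 and 48.4 RPKM across double negative ones. Immature libraries were highest and mature libraries lowest, with no overlap. The differences were 1.58 log2 units (SE 0.06, limma adjusted p = 7.9e-06) for immature minus mature, -1.02 log2 units (SE 0.06, limma adjusted p = 5.07e-05) for mature minus double negative and 0.56 log2 units (SE 0.06, limma adjusted p = 0.000616) for immature minus double negative. Antisense gene models such as Gm15441 cover 19.4% of the Txnip exons, and the library kit does not mark strand. Txn1, cytosolic thioredoxin, measured 133 and 136 RPKM across immature libraries, 77.7 and 79.7 RPKM across mature ones and 104 and 106 RPKM across double negative ones. The order of populations was the one of Txnip, with 0.77 log2 units (SE 0.05, limma adjusted p = 4.67e-05) for immature minus mature and -0.41 log2 units for mature minus double negative cells, both kept. Its difference of 0.36 log2 units between immature and double negative cells was lost after both rescalings.

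The mitochondrial thioredoxin gene Txn2 averaged 18 (immature), 25.2 (mature) and 12.8 RPKM (double negative). Immature cells were lower than mature cells by 0.47 log2 units (SE 0.08, limma adjusted p = 0.00271), and the gene was higher in mature than in double negative cells by 0.93 log2 units (SE 0.08, limma adjusted p = 0.000224). Txnrd1, the cytosolic reductase that recharges thioredoxin, measured 209.8 and 188 RPKM across immature libraries, 189 and 185 RPKM across mature ones and 146 and 144 RPKM across double negative ones. The immature and mature values overlapped and their difference of 0.09 log2 units (SE 0.06, limma adjusted p = 0.271) did not pass, while both beta cell populations exceeded double negative cells, by 0.45 log2 units and 0.36 log2 units, calls lost only after quantile normalization. The mitochondrial reductase gene Txnrd2, at means of 3.12 (immature), 2.52 (mature) and 3.06 RPKM (double negative), passed in no comparison.

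Glutaredoxins, which remove glutathione from proteins or carry iron-sulfur clusters, showed 1 rise, 2 falls and 1 gene that did not pass between immature and mature cells. After median-ratio rescaling 0 rose and 2 fell, and after quantile normalization 0 and 4. Glrx, the cytosolic form, measured 41.9 and 31 RPKM across immature libraries, 56.2 and 55.1 RPKM across mature ones and 10.3 and 10.04 RPKM across double negative ones. Mature libraries were highest and double negative libraries were several-fold below both beta cell populations. Mature cells exceeded double negative cells by 2.34 log2 units (SE 0.13, limma adjusted p = 5.2e-05), immature cells did so by 1.73 log2 units (SE 0.13, limma adjusted p = 0.000208), and immature cells were lower than mature cells by 0.61 log2 units (SE 0.13, limma adjusted p = 0.00822). All 3 calls were kept. Glrx5, a mitochondrial carrier of iron-sulfur clusters, averaged 35.7 (immature), 47.1 (mature) and 31.5 RPKM (double negative). Its fall of 0.40 log2 units in immature against mature cells was lost in 6 of the 14 alternatives that covered it. The rise of Glrx2 by 0.29 log2 units was lost or reversed in most alternatives, and Glrx3 passed in no comparison.

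All 4 genes of glutathione synthesis and reduction were called higher in immature than in mature cells, where 49.8% of all genes were. Gclc, the catalytic subunit of glutamate-cysteine ligase, measured 48.6 and 48 RPKM across immature libraries, 29.2 and 28.1 RPKM across mature ones and 28.1 and 27.5 RPKM across double negative ones. Both immature libraries stood above the other 4, whose levels nearly coincided. Immature cells exceeded mature cells by 0.73 log2 units (SE 0.05, limma adjusted p = 7.51e-05) and double negative cells by 0.78 log2 units (SE 0.05, limma adjusted p = 0.000106), and the mature minus double negative value of 0.04 log2 units did not pass. Gclm, the modifier subunit, measured 52.5 and 48.1 RPKM across immature libraries, 32.1 and 30.00 RPKM across mature ones and 41.5 and 43.5 RPKM across double negative ones. It was higher in immature than in mature cells by 0.68 log2 units (SE 0.07, limma adjusted p = 0.000331) and lower in mature than in double negative cells by 0.44 log2 units. The difference of 0.24 log2 units between immature and double negative cells turned sign after both rescalings.

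Gss, glutathione synthetase, measured 6.0 and 5.44 RPKM across immature libraries, 2.35 and 2.43 RPKM across mature ones and 3.13 and 3.09 RPKM across double negative ones. Immature libraries were highest and mature ones lowest. It was higher in immature than in mature cells by 0.99 log2 units (SE 0.08, limma adjusted p = 0.000188). Gsr, which recycles oxidized glutathione, averaged 51.6 (immature), 44.9 (mature) and 30.4 RPKM (double negative). Its rise of 0.20 log2 units (SE 0.05, limma adjusted p = 0.0208) in immature against mature cells turned sign after median-ratio rescaling and was lost without either mature library. Both beta cell populations exceeded double negative cells in Gsr, by 0.74 log2 units for immature and 0.55 log2 units for mature cells, and both calls were kept. The summed RPKM of the 4 genes was 157 and 155 in immature, 109 and 105 in mature and 103 and 104 in double negative libraries.

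Of the 8 tested glutathione S-transferase genes, which attach glutathione to reactive compounds, 5 rose, none fell and 3 did not pass in immature against mature cells. The share of 62.5% higher stood against 49.8% of all genes, of which 15.5% were lower. After median-ratio rescaling 5 rose and 2 fell. Gsta4, which handles lipid aldehydes such as 4-hydroxynonenal, measured 96.9 and 35.8 RPKM across immature libraries, 0.529 and 0.584 RPKM across mature ones and 10.5 and 11.4 RPKM across double negative ones. The immature libraries were the highest and, on the log2 scale, differed from each other by more than for any other tested member, while the mature libraries were under 1 RPKM. The difference was 5.27 log2 units (SE 0.42, limma adjusted p = 0.000149) for immature minus mature and 2.33 log2 units (SE 0.42, limma adjusted p = 0.00514) for immature minus double negative. Mature cells were lower than double negative cells by 2.94 log2 units (SE 0.42, limma adjusted p = 0.00194). That SE includes the spread of the immature libraries, which are not part of this difference.

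Mgst1, a membrane-bound transferase, measured 19.3 and 13.8 RPKM across immature libraries, 0.126 and 0.0556 RPKM across mature ones and 3.02 and 3.89 RPKM across double negative ones. Its mature values stood for 6 and 3 reads, so the fitted difference of 3.99 log2 units (SE 0.18, limma adjusted p = 1.54e-05) again depends on the pseudocount. Immature cells exceeded double negative cells by 1.97 log2 units (SE 0.18, limma adjusted p = 0.000363), and mature cells were lower than double negative cells by 2.02 log2 units. Mgst2, the untested member, had 0.113 and 0.235 RPKM across immature libraries, 0 and 0 RPKM across mature ones and 0.0367 and 0.0238 RPKM across double negative ones, at most 3 reads in any library.

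Gstp1, the most abundant transferase, measured 281 and 305 RPKM across immature libraries, 165 and 164 RPKM across mature ones and 192 and 186 RPKM across double negative ones. Immature cells exceeded mature cells by 0.83 log2 units (SE 0.06, limma adjusted p = 8.8e-05), and the difference of -0.20 log2 units between mature and double negative cells was lost in most alternatives. Of its 50-base windows 33.7% also occur in other genes, among them Gstp2. Gstm1 measured 97.3 and 96.6 RPKM across immature libraries, 32.3 and 33.1 RPKM across mature ones and 47.6 and 50.1 RPKM across double negative ones. It was higher in immature than in mature cells by 1.54 log2 units (SE 0.05, limma adjusted p = 5.11e-06) and than in double negative cells by 0.97 log2 units (SE 0.05, limma adjusted p = 5.2e-05), with no overlap, and 18.9% of its windows are shared with other genes.

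Gsto1, an omega-class enzyme that works more like a glutaredoxin, measured 32.9 and 29.2 RPKM across immature libraries, 29 and 27.2 RPKM across mature ones and 8.04 and 7.76 RPKM across double negative ones. Both beta cell populations stood far above double negative cells, by 1.85 log2 units (SE 0.08, limma adjusted p = 2.61e-05) for immature and 1.71 log2 units (SE 0.08, limma adjusted p = 2.2e-05) for mature cells. The immature minus mature value of 0.14 log2 units did not pass and turned sign, at -0.20, after median-ratio rescaling. Gstt1 averaged 19.2 (immature), 12.2 (mature) and 27.5 RPKM (double negative). It was highest in double negative cells, with -1.11 log2 units (SE 0.06, limma adjusted p = 4.62e-05) for mature minus double negative, -0.50 log2 units for immature minus double negative and 0.61 log2 units (SE 0.06, limma adjusted p = 0.000354) for immature minus mature. Gstm5 averaged 12 (immature), 13.9 (mature) and 17.3 RPKM (double negative), and Mgst3 averaged 6.04, 4.79 and 6.58 RPKM in the same order. Neither passed between immature and mature cells.

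Among the NRF2 genes and heme oxygenases, only the transcription factor gene passed between immature and mature cells with the deposited scaling, and the other 3 were called lower after either rescaling. With the deposited scaling 49.8% of all genes were called higher and 15.5% lower. Nfe2l2 measured 39.9 and 40.2 RPKM across immature libraries, 16.4 and 15.5 RPKM across mature ones and 16.7 and 18.4 RPKM across double negative ones. The immature libraries exceeded the other 4, by 1.28 log2 units (SE 0.07, limma adjusted p = 2.89e-05) against mature and 1.15 log2 units (SE 0.07, limma adjusted p = 8.07e-05) against double negative cells, and mature and double negative cells differed by -0.13 log2 units, which did not pass. Keap1, which holds NRF2 back, measured 13.4 and 16.7 RPKM across immature libraries, 16.2 and 16.9 RPKM across mature ones and 14.5 and 13.5 RPKM across double negative ones. Its values overlapped between immature cells and both other populations and it passed in no comparison, with -0.13 log2 units (SE 0.11, limma adjusted p = 0.307) for immature minus mature. Of the 4 genes whose promoter stretch is printed, Prdx1 and Gclm were called higher in immature than in mature cells and kept that call, Sod1 was called and did not keep it, and Txnrd1 did not pass. NRF2 is controlled mainly at the protein level, which these libraries do not measure.

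Hmox1, the inducible enzyme that breaks down heme, was among the most abundant members and measured 417 and 393 RPKM across immature libraries, 403 and 378 RPKM across mature ones and 123 and 114 RPKM across double negative ones. Immature and mature values overlapped, while every beta cell library was above every double negative library. The differences were 0.05 log2 units (SE 0.07, limma adjusted p = 0.507) for immature minus mature, 1.71 log2 units (SE 0.07, limma adjusted p = 1.49e-05) for mature minus double negative and 1.77 log2 units (SE 0.07, limma adjusted p = 2.13e-05) for immature minus double negative. After rescaling the first became a call in the other direction, at -0.30 by median ratio and -0.34 by quantiles. Hmox2, the constitutive form, averaged 21.6 (immature), 25.4 (mature) and 14.2 RPKM (double negative) and exceeded double negative levels by 0.56 log2 units in immature and 0.79 log2 units in mature cells. Hmox2 and Cdip1 overlap over 40.2% of the Hmox2 exons.

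The genes fell into a few orders of expression, counted without a test. The most frequent had both mature libraries below the other 4, for 23 of the 42 tested genes (54.8%), where 42.2% of all tested genes did so. Both immature libraries stood above the other 4 for 18 of the 42 (42.9%, against 42.4% of all genes). Both held for 14 genes (33.3%, against 25.2% of all genes), namely Sod3, Cat, Gpx1, Gpx8, Prdx1, Txn1, Txnip, Gclm, Gss, Gsta4, Gstm1, Gstp1, Mgst1 and Nfe2l2. The summed endothelial, immune, mesenchymal and acinar markers had that same order of populations, and their part in these differences was not tested. Sod3 was among the tested genes only through its immature values. Both mature libraries were above the other 4 for 10 genes (23.8%, against 18.7% of all genes), namely Sod2, Gpx2, Gpx4, Prdx3, Prdx5, Srxn1, Txn2, Glrx, Glrx5 and Hmox2. Double negative libraries were highest for 5 (11.9%, against 12.9%), Gpx3, Prdx2, Prdx4, Gstm5 and Gstt1, and lowest for 14 (33.3%, against 25.1%). Immature libraries were below the other 4 for 0 of the 42 and for 6.07% of all genes. Immature levels lay between those of the other populations for 12 of the 42 (28.6%), against 18.6% of all genes.

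Proteins of the same families that work in mitochondria and in the cytosol were set side by side, a grouping made after the values were seen and given without a test. Of the 7 mitochondrial forms, Sod2, Prdx3, Prdx5, Txn2, Txnrd2, Glrx2 and Glrx5, 1 was called higher and 4 lower in immature than in mature cells, with a median of -0.34, where 49.8% and 15.5% of all genes were called. After median-ratio rescaling none were higher and 5 lower, and after quantile normalization none and 6. Mature cells exceeded double negative cells in 5 of the 7 and were lower in 0, where 23.1% and 31.2% of all genes were called, and exceeded them in 3 after quantile normalization. Of the 8 cytosolic forms, Sod1, Prdx1, Prdx2, Prdx6, Txn1, Txnrd1, Glrx and Glrx3, 4 were called higher and 1 lower in immature cells than in mature ones, and 3 and 2 after either rescaling.

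**Figure D4:**
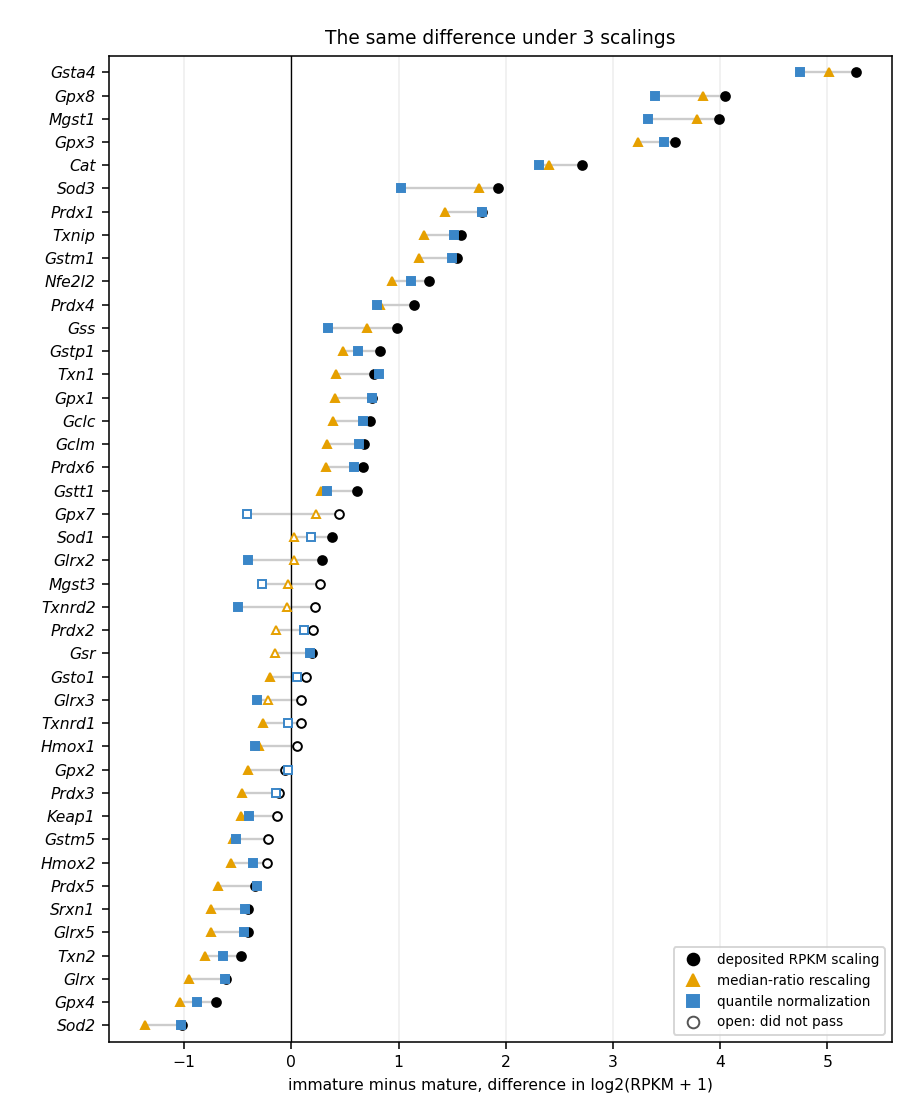
Immature minus mature difference in log2(RPKM + 1) of the 42 tested genes with the deposited scaling (circles), median-ratio rescaling (triangles) and quantile normalization (squares), with open symbols where the test was not passed. From Gsta4 at the top to Gstt1 each gene is higher in immature cells under all 3 scalings, and Gpx4 and Sod2 at the bottom are lower under all 3.

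Genes that supply NADPH, the reductant of both systems, were higher in immature than in mature cells for 8 of 13 tested (61.5%) and lower for 0, with a median of 0.36. Of all genes, 49.8% were called higher and 15.5% lower, with a median of 0.29. The counts became 5 and 4 after median-ratio rescaling and 6 and 2 after quantile normalization, Idh2 and Nadk2 turning sign under 1 of them each. Pgd, the second dehydrogenase of the pentose phosphate pathway, measured 39.8 and 39.4 RPKM across immature libraries, 15.3 and 14.8 RPKM across mature ones and 15.7 and 16 RPKM across double negative ones. Immature libraries were highest, by 1.34 log2 units (SE 0.05, limma adjusted p = 9.03e-06) against mature cells. Idh1, the cytosolic isocitrate dehydrogenase, rose by 0.92 log2 units (SE 0.05), the NAD kinase gene Nadk by 0.67 log2 units (SE 0.05) and the transaldolase gene Taldo1 by 0.64 log2 units (SE 0.05), each with a limma adjusted p under the threshold. Against double negative cells, 7 were called higher and 1 lower in immature cells (5 and 3 after quantile normalization), and 2 higher and 3 lower in mature cells. For immature cells these were 53.8% and 7.69%, against 45.9% and 10.6% of all genes. For mature cells they were 15.4% and 23.1%, against 23.1% and 31.2%. The medians were 0.26 and -0.03, where those of all genes were 0.24 and -0.08.

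Further NRF2 target genes were called higher in immature than in mature cells for 14 of 17 (82.4%, against 49.8% of all genes) and lower for 2 (11.8%, against 15.5%), with a median of 0.71. They were called higher than in double negative cells for 16 of 17 (94.1%, against 45.9% of all genes), with a median of 1.09. Mature cells had 8 called higher and 4 lower than double negative cells (47.1% and 23.5%, against 23.1% and 31.2% of all genes), with a median of 0.15. Blvrb, biliverdin reductase B, measured 33.7 and 24.2 RPKM across immature libraries, 2.24 and 2.37 RPKM across mature ones and 7.63 and 5.51 RPKM across double negative ones, and the immature minus mature difference was 3.16 log2 units (SE 0.19, limma adjusted p = 5.12e-05). Nqo1, a quinone reductase, measured 59.98 and 48.9 RPKM across immature libraries, 8.06 and 7.47 RPKM across mature ones and 11.1 and 13.4 RPKM across double negative ones. The immature libraries were highest and the difference from mature cells was 2.65 log2 units (SE 0.13, limma adjusted p = 2.06e-05). Fth1, the ferritin heavy chain, rose by 2.37 log2 units (SE 0.06) and Slc7a11, the cystine importer, by 1.71 log2 units (SE 0.10). The 2 falls, named after their values were seen, were of Sqstm1, an autophagy receptor, by 1.2 log2 units and Abcc4, an exporter, by 0.82 log2 units. Pir turned sign after quantile normalization. The immune, endothelial, mesenchymal and acinar markers were highest in the same libraries, and their part in these differences was not tested.

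Cysteine and glutathione turnover genes were called higher for 5 and lower for 5 of 11 tested in immature against mature cells (45.5% each, against 49.8% and 15.5% of all genes), with a median of 0.05. The counts were 3 and 5 after median-ratio rescaling and 3 and 7 after quantile normalization, where Ggct and Oplah turned sign. The lower genes included those that make cysteine from homocysteine. Cbs measured 7.75 and 9.45 RPKM across immature libraries, 30.6 and 30.6 RPKM across mature ones and 9.15 and 9.04 RPKM across double negative ones, and immature minus mature was -1.72 log2 units (SE 0.09, limma adjusted p = 3.22e-05). Cth measured 2.39 and 3.64 RPKM across immature libraries, 10.2 and 9.4 RPKM across mature ones and 0.812 and 0.741 RPKM across double negative ones, and immature minus mature was -1.44 log2 units (SE 0.16, limma adjusted p = 0.000497). Mature libraries were the highest for both. Slc1a5, a neutral amino acid transporter, rose by 1.45 log2 units (SE 0.09) and Slc7a11, also counted above, is the other of the 4 largest differences. In mature cells 6 were called higher and 2 lower than in double negative cells (54.5% and 18.2%, against 23.1% and 31.2% of all genes). The median was 0.34, and -0.08 for all genes. In immature cells 5 were higher and 0 lower (5 and 6 after quantile normalization), and the 45.5% higher was close to the 45.9% of all genes. The median was 0.17, and 0.24 for all genes.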

How the data were processed

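RNA from sorted islet cells was made into TruSeq RNA v2 libraries, per the labels' protocols, a kit that does not mark strand. The submitters' processing notes name STAR 2.5, featureCounts, edgeR 3.14.0 and the build GRCm38.p4. The authors deposited 1 table of RPKM per gene, and its header maps every column to a sample.

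Genes with at least 1 RPKM in at least 2 of 6 libraries were tested with limma 3.58.1 (R 4.3.3) on log2(RPKM + 1), with group means over all 6 libraries, a mean-variance trend and Benjamini-Hochberg adjustment over all genes tested. A log2 difference on this scale understates the change of low genes. With 3 residual degrees of freedom the spread of each gene leans on that of the others. The members and lists were chosen with earlier results of these data known. Values in every library are given for called members with the largest differences and at least 5 RPKM, for the most abundant members and for members of well-known roles. The rest are given as means and counts. Of each list, the up to 4 called genes with the largest immature minus mature difference are named.

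Low RPKM values fell on whole multiples of 1 read for 78.1% to 83.8% of low values per library (tolerance 0.02, with gene lengths of a later annotation release), which gave the depths. Voom ran on the 8995 genes that gave whole reads, 28 of them members. One read in 1 kb equals 0.418 and 0.29 RPKM across immature libraries, 0.0422 and 0.0373 RPKM across mature ones and 0.0453 and 0.044 RPKM across double negative ones, so counting error is largest in immature cells. Alternatives were another pseudocount, 2 other filters, 2 rescalings, no trend, 2 groups only, a replicate block, voom and leaving out each library.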

Additional observations from a re-analysis of the deposited data

How the results depend on the processing

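Scaling moved the most calls. For immature minus mature, the 7 lower genes became 15 after median-ratio rescaling, 14 after quantile normalization and 4 with voom, which covers 28 members. Genes called higher fell to 8 for mature minus double negative with voom (15) and to 17 for immature minus double negative with voom (28). These 28 held 4, 8 and 18 such calls before voom, and voom called 19 of them lower for mature minus double negative where 13 had been. Voom left 28, 22 and 27 on their side of the threshold in the 3 comparisons. The 5 lower genes for immature minus double negative became 3 without a filter and 10 after quantile normalization. Leaving out 1 library gave 19 to 26 higher and 5 to 8 lower genes for immature minus mature, 12 to 16 and 13 to 23 for mature minus double negative, and 24 to 28 and 2 to 6 for immature minus double negative, the 2 being reached without double negative replicate 1 and without replicate 2, with the lone library left assumed to vary like the other groups. Sign changes are listed here only for differences called with the deposited scaling or after the rescaling, and changes called in neither are left out. After median-ratio rescaling they were Txnrd1 (-0.26), Gsr (-0.15), Gsto1 (-0.20) and Hmox1 (-0.30) for immature minus mature, and Sod1 (-0.23), Prdx3 (-0.055) and Gclm (-0.026) for immature minus double negative. After quantile normalization they were Txnrd2 (-0.50), Glrx2 (-0.40), Glrx3 (-0.32) and Hmox1 (-0.34) for immature minus mature, and Sod1 (-0.39), Prdx3 (-0.035), Txnrd2 (-0.45), Glrx2 (-0.41) and Gclm (-0.0076) for immature minus double negative. The cause was not tested. Same-numbered libraries did not deviate together (correlations of -0.00933 for immature and mature, -0.112 for mature and double negative and 0.14 for immature and double negative), so the numbers were not taken to pair the libraries, though they share the sex label. With a replicate block the counts were 21 higher and 7 lower for immature minus mature, 14 and 15 for mature minus double negative and 28 and 5 for immature minus double negative. Fitting only the 2 groups compared gave 21 and 6, 16 and 23, and 25 and 5 in the same order. A block with crossed numbers, added after seeing the data, gave 15 and 17 for mature minus double negative. The lower read totals of the immature libraries limit their low genes.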

Other observations

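Further glutathione S-transferase genes, outside the 43, were called higher for 5 and lower for 0 of 10 tested in immature against mature cells. The shares of all genes were 49.8% and 15.5%. The median was 0.62 for these 10 genes and 0.29 for all genes. After quantile normalization 2 of the 10 were higher and 2 lower, with Gstm7 turning sign, and after median-ratio rescaling 3 and 1. Gsta3, an alpha-class transferase, measured 5.39 and 3.34 RPKM across immature libraries, 0.0485 and 0.0858 RPKM across mature ones and 1.11 and 1.12 RPKM across double negative ones, an immature minus mature difference of 2.3 log2 units (SE 0.19, limma adjusted p = 0.000161). Gstm3 rose by 1.28 log2 units (SE 0.21), Gstm7 by 0.81 log2 units (SE 0.18) and Gstz1, which acts in tyrosine breakdown, by 0.63 log2 units (SE 0.12). Of the 10, mature cells had 1 called higher and 4 lower than double negative cells, with a median of -0.49. Of all genes, 23.1% were higher and 31.2% lower, with a median of -0.08. Immature cells had 3 called higher and 2 lower than double negative cells, with a median of 0.19 (2 and 3 after quantile normalization). In that comparison 45.9% of all genes were higher and 10.6% lower, with a median of 0.24.

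Further thioredoxin-fold and oxidation repair genes were called higher for 7 and lower for 5 of 20 in immature against mature cells (35.0% and 25.0%, against 49.8% and 15.5% of all genes), with a median of 0.02. The split reversed after rescaling, to 5 and 13 by median ratio and 3 and 10 by quantiles. Msrb3 and Msrb1, which reduce oxidized methionine, rose by 2.51 log2 units (SE 0.11) and 1.53 log2 units (SE 0.17), Sesn1, a stress-induced sestrin, by 0.90 log2 units (SE 0.15) and the reductase gene Txnrd3 by 0.86 log2 units (SE 0.10). Mature cells had 7 called higher and 8 lower than double negative cells, with a median of 0.07. Of all genes, 23.1% were higher and 31.2% lower, with a median of -0.08. Immature cells had 5 called higher and 4 lower than double negative cells, with a median of 0.00. These counts became 3 and 13 by median ratio and 3 and 14 by quantiles. With the deposited scaling 45.9% of all genes were higher and 10.6% lower there, with a median of 0.24.

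The NADPH oxidase genes, whose complex makes superoxide in phagocytes, were all called higher in immature than in mature cells, 7 of 7 tested, with a median of 2.68 (6 of 7 after median-ratio rescaling), and higher than in double negative cells, 7 of 7, with a median of 2.52. Of all genes, 49.8% and 45.9% were called higher. Mature cells had 0 called higher and 1 lower than double negative cells by limma, where 23.1% and 31.2% of all genes were, with a median of -0.24. Cyba, a membrane subunit of the oxidase, measured 77.2 and 70.8 RPKM across immature libraries, 0.334 and 0.393 RPKM across mature ones and 7.47 and 9.46 RPKM across double negative ones, a difference of 5.78 log2 units (SE 0.11, limma adjusted p = 1.21e-06) from mature cells. Ncf4 rose by 3.9 log2 units (SE 0.12), Cybb, the catalytic subunit, by 2.95 log2 units (SE 0.12) and Ncf1 by 2.68 log2 units (SE 0.12). The 10 immune markers summed to 1582 and 1608 RPKM across immature libraries, 20.3 and 21 RPKM across mature ones and 39.5 and 43.9 RPKM across double negative ones, also highest in both immature libraries, and their part in these differences was not tested.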
